A study of Mus musculus with 8 samples.

Results

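The LIN28, TRIM71 and let-7 axis was followed through 8 genes: Lin28a and Lin28b, Trim71, Hmga2, the 3 Igf2bp genes and Mycn. They were chosen by name, as the LIN28 paralogs, TRIM71 and known let-7 targets of early embryos, with no threshold on a measured value. The choice was made with earlier results of the same libraries in view, in which Lin28a RNA was lower in knockout cells of both stages and Trim71 RNA was lower in knockout ESCs. Those values are therefore given as a description, with no p. All 8 genes were found among the 55401 genes listed, and all 8 were among the 17125 with enough counts to be tested.

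Poly(A) RNA was sequenced from R1 cells, a line of mouse embryonic stem cells (ESCs), that either carried a knockout of Zfp462, a zinc finger gene, or were wild type. The 4 groups were Zfp462 knockout ESCs, wild-type control ESCs, Zfp462 knockout embryoid bodies (EBs) and wild-type control EBs, with 2 libraries each. ESCs of both genotypes were grown on gelatin in serum with LIF, a cytokine that maintains them. EBs, floating aggregates in which ESCs begin to differentiate, were collected after 3 days in Petri dishes. The study asked how loss of Zfp462 affects self-renewal and differentiation. The labels call the knockout cells stable lines and do not say how many lines there were, which part of the gene was altered, or whether both libraries of each group derive from separate cultures. The p-values given here therefore measure the spread between these libraries, which may be technical.

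In early embryos and ESCs, the RNA-binding proteins LIN28A and LIN28B bind precursors of the let-7 microRNAs and block their maturation, and let-7 in turn pairs with sites in the 3′ untranslated regions (UTRs) of mRNAs that include those of LIN28, TRIM71, HMGA2 and the IGF2BP proteins. The axis is known as a switch in developmental timing: LIN28 is high and mature let-7 low in pluripotent cells, and the order turns round as cells differentiate. TRIM71, a TRIM-NHL protein first described in worms as LIN-41, represses mRNAs of its own and is itself a conserved let-7 target. Mature let-7 was not measured, since poly(A) libraries do not hold microRNAs.

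Of the mouse let-7 family members listed by RefSeq, 10 shared 1 seed, bases 2 to 8, which is the part that pairs with a target. The mature sequences of 4 are shown because their shared seed defines the sites searched for in the 8 genes, with the seed in capitals (RefSeq, GRCm38.p6).
let-7a-5p: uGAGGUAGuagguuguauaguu
let-7d-5p: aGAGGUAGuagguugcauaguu
let-7g-5p: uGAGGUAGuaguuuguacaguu
miR-98-5p: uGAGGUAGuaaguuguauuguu

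The letters searched were CTACCTC, the complement of that seed, and CTACCTCA, the same 7 bases followed by A, which is usually the most effective form. Only the sense strand of the longest annotated 3′ UTR of each gene was read (GENCODE M21, GRCm38, the mm10 build), and each 8-base site contains the 7-base match. Of the 8 genes, 7 held at least 1 8-base site. Trim71 held 4, Igf2bp1 3, Lin28a 2, and Lin28b, Hmga2, Igf2bp2 and Igf2bp3 1 each. Lin28b and Hmga2 each had 3 further matches to the 7 bases alone, and Igf2bp1 had 1. Mycn, whose 3′ UTR was the shortest of the 8 at 913 bases, held neither form. Among all 21152 genes with an annotated 3′ UTR, 3.54% held the 8-base site and 10.1% the 7-base match, and among the 11341 with a UTR between 913 and 6337 bases, the range of the 8 genes, the shares were 5.2% and 14.6%. Only 7 genes of the annotation held 3 or more 8-base sites, and Trim71 and Igf2bp1 were 2 of them. As the genes were picked in part as known let-7 targets, these shares describe the choice, and a match to these letters is not evidence of use.

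The first 8-base site of each gene that has one, and the second site of Lin28a and of Trim71, are shown with flanking bases so that they can be compared with the seed. Capitals mark the 8-base site, all sites are on the minus strand and lie in the 3′ UTR within 1 exon, and positions are GRCm38 (mm10).
Lin28a, site 1, chr4:134005187-134005214: agtgcacagcctgttgaaCTACCTCAtt
Lin28a, site 2, chr4:134004549-134004576: tttgagatcgccacaaacCTACCTCAct
Lin28b, chr10:45381020-45381047: ttcacccgggcgggaagtCTACCTCAtg
Trim71, site 1, chr9:114512470-114512497: tacaacattgcctaagtcCTACCTCAgc
Trim71, site 2, chr9:114512374-114512401: tgaagtgataatttctatCTACCTCAac
Hmga2, chr10:120364222-120364249: ggcgccgacattcaatttCTACCTCAgc
Igf2bp1, site 1, chr11:95961776-95961803: agtgctgtgcgaagtaaaCTACCTCAag
Igf2bp2, chr16:22059471-22059498: aaaacacacaaataaaagCTACCTCAgg
Igf2bp3, chr6:49086785-49086812: acgtgcatttttactcaaCTACCTCAgg

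In the windows the 8 capital bases are identical by construction, and the flanking bases differ from gene to gene. The sites also differed in where they lay. The first site was 36 bases after the stop codon in Lin28b and 58 bases after it in Hmga2, and 909 bases after it in Lin28a. In Trim71, 2 sites lay at bases 166 and 262 and the other 2 at bases 3591 and 3617.

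**Figure D1:**
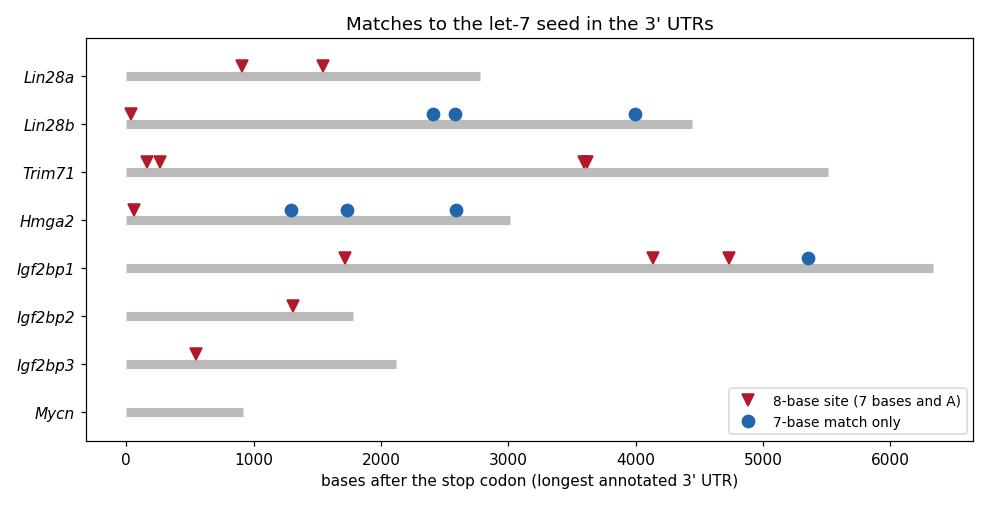
Position of each match to the let-7 seed in the longest annotated 3′ UTR of the 8 genes, in bases after the stop codon; grey bars are the UTRs, triangles the 8-base sites and circles 7-base matches without the final A. Trim71 carries 4 8-base sites, Lin28b and Hmga2 carry 1 near the start of the UTR, and Mycn carries none.

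The 8 libraries held 12119763 to 16228426 gene counts, and the 8 genes had from 379 counts (Lin28b in the second knockout EB library) to 10428 counts (Igf2bp1 in the second control ESC library). Levels are given as CPM, counts scaled to the library size with TMM factors, and comparisons between genes use TPM, which also divides by exonic length. Zfp462 RNA was still present in the knockout, at 104.0 and 106.6 CPM in knockout ESCs against 183.2 and 196.9 CPM in controls. EBs showed the same order, with 102.0 and 102.5 CPM in the knockout against 153.5 and 130.3 CPM in the control. All 8 pluripotency markers checked had 10 or more counts in every library. They summed to 3505 and 3496 CPM in knockout ESCs against 4767 and 4859 CPM in control ESCs, and to 2797 and 2841 CPM in knockout EBs against 2797 and 2709 CPM in control EBs. The 6 formative and primed epiblast markers, each with at least 10 counts in every library, summed to 375.2 and 356.9 CPM in knockout ESCs against 330.7 and 352.2 CPM in control ESCs, and to 1207 and 1181 CPM in knockout EBs against 1998 and 2125 CPM in control EBs. The summed pluripotency markers were thus lower in knockout ESCs, and the summed epiblast markers lower in knockout EBs. Lin28a, Lin28b, Trim71, Igf2bp1 and Mycn were lower in the same libraries, and Hmga2 was higher. In EBs Trim71 and Igf2bp1 were not called at an adjusted p below 0.05. A sum does not give the direction of each marker. In EBs Pou5f1 was at 385.8 and 370.7 CPM in the knockout against 426.2 and 439.0 CPM in the control. Sox2 was at 314.2 and 327.7 CPM against 443.5 and 398.5 CPM there. Both were lower while the EB sum was not, and the other pluripotency markers were not read singly. Some libraries stood apart. The first knockout EB library held all 12 adult liver markers at a summed 2090 CPM, against at most 29.7 CPM in the others, and the difference between the knockout ESC libraries followed the GC content of genes (r = 0.691 across genes, which are not independent replicates). Markers of extraembryonic endoderm, all 14 of them with at least 10 counts in every library, summed to 16393 and 13386 CPM in knockout ESCs against 3749 and 3918 CPM in control ESCs, while EBs had 8222 and 9093 CPM in the knockout against 4277 and 4519 CPM in the control. The part of these marker, liver RNA and GC differences in the results below was not tested, and in bulk RNA fewer cells of a type and less RNA per cell cannot be told apart.

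Lin28a encodes the main LIN28 protein of ESCs. Its RNA stood at 155.9 and 143.8 CPM in knockout ESCs, against 298.7 and 287.2 CPM in control ESCs. In EBs it stood at 263.0 and 255.4 CPM in the knockout, against 392.5 and 372.1 CPM in the control. The 2 genotypes did not overlap at either stage, and knockout EBs remained below control ESCs. The log2 difference, knockout over control, was -0.97 ± 0.08 in ESCs and -0.56 ± 0.08 in EBs (SE, n = 2 libraries a group).

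Lin28b, the paralog that is also found in the nucleus, had the lower TPM of the pair in every library. Its level was 29.7 and 36.2 CPM in knockout ESCs, against 56.2 and 49.5 CPM in control ESCs. In EBs it had 30.7 and 28.8 CPM in the knockout, against 50.5 and 60.7 CPM in the control. Neither stage overlapped. On the log2 scale Lin28b fell by 0.68 ± 0.14 in knockout ESCs (adjusted p = 0.00911) and by 0.90 ± 0.14 in knockout EBs (adjusted p = 0.00441). Per exonic length, Lin28a exceeded Lin28b in each library, with a TPM ratio of 11.9 and 9.0 in knockout ESCs, 12.1 and 13.2 in control ESCs, 19.5 and 20.1 in knockout EBs, and 17.6 and 13.9 in control EBs. The ratio was higher in both knockout EB libraries than in any other, and the first knockout ESC library stood close to the first control ESC library.

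Trim71, which encodes an RNA-binding ubiquitin ligase, was at 266.0 and 241.6 CPM in knockout ESCs, against 354.6 and 380.1 CPM in control ESCs. In EBs it was at 247.7 and 254.2 CPM in the knockout, against 310.0 and 291.3 CPM in the control. Knockout libraries of both stages lay close together, and control ESCs were the highest group. The log2 difference was -0.53 ± 0.09 in ESCs and -0.26 ± 0.09 in EBs.

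Hmga2, a chromatin architectural protein whose mRNA is one of the best known let-7 targets, was the only one of the 8 called higher in the knockout at both stages. It reached 90.1 and 93.2 CPM in knockout ESCs, against 38.7 and 45.4 CPM in control ESCs. In EBs it reached 49.1 and 46.8 CPM in the knockout, against 36.1 and 29.8 CPM in the control. Knockout ESCs stood well above the other 3 groups. Hmga2 rose by 1.12 ± 0.12 on the log2 scale in knockout ESCs (adjusted p = 0.000232), and by 0.54 ± 0.13 in knockout EBs (adjusted p = 0.0303).

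The IGF2BP proteins bind and stabilise mRNAs, including that of IGF2. Igf2bp1, the highest of the 3 by TPM, was at 538.0 and 462.3 CPM in knockout ESCs, against 628.2 and 640.6 CPM in control ESCs. In EBs it was at 531.8 and 522.8 CPM in the knockout, against 616.3 and 593.4 CPM in the control. It fell in knockout ESCs by 0.34 ± 0.08 on the log2 scale (adjusted p = 0.0212). In EBs the difference of -0.20 ± 0.08 did not pass (adjusted p = 0.203) although the libraries did not overlap.

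Igf2bp2 went the other way in value. It was at 197.4 and 144.2 CPM in knockout ESCs, against 148.4 and 149.8 CPM in control ESCs, and the groups overlapped (log2 difference 0.20 ± 0.13, adjusted p = 0.389). In EBs it was at 174.2 and 166.2 CPM in the knockout, against 130.8 and 115.9 CPM in the control, without overlap, and the log2 difference of 0.46 ± 0.13 had an adjusted p of 0.0691. It passed in DESeq2 (0.45, adjusted p = 0.0302), with no low-count filter (adjusted p = 0.00103) and with only the EB libraries fitted (adjusted p = 0.00359). Igf2bp3, the lowest of the 3 by TPM, was at 43.5 and 46.6 CPM in knockout ESCs against 42.6 and 44.0 CPM in control ESCs. In EBs it was at 52.7 and 52.4 CPM in the knockout, against 68.0 and 55.5 CPM in the control, without overlap. Its log2 differences of 0.06 ± 0.12 in ESCs and -0.23 ± 0.12 in EBs did not pass (adjusted p = 0.807 and 0.291). Igf2bp3 shares 3058 exonic bases with Malsu1 on the opposite strand, and whether the counting used strand is unknown, so its level is uncertain by that overlap.

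As a share of the summed TPM of the 3 Igf2bp genes, Igf2bp2 took 30.5% and 26.7% in knockout ESCs against 22.2% and 22.1% in control ESCs, and 27.7% and 27.1% in knockout EBs against 19.7% and 18.7% in control EBs. Igf2bp1 took 63.5% and 65.5% in knockout ESCs against 72.0% and 72.1% in control ESCs, and 64.7% and 65.2% in knockout EBs against 71.0% and 73.2% in control EBs. Neither share overlapped between the genotypes at either stage. These shares were not tested. In CPM, 52.6% of all genes tested did not overlap between the genotypes in ESCs and 59.4% in EBs, and Igf2bp2 itself passed at neither stage in edgeR.

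Mycn encodes a MYC family transcription factor that is highly expressed in ESCs and the epiblast. Its RNA was at 124.0 and 93.0 CPM in knockout ESCs, against 183.6 and 188.0 CPM in control ESCs. In EBs it was at 192.0 and 187.4 CPM in the knockout, against 265.0 and 274.7 CPM in the control. The knockout libraries were lower at both stages, and knockout EBs stood at about the level of control ESCs. Mycn fell by 0.78 ± 0.12 on the log2 scale in knockout ESCs (adjusted p = 0.00186) and by 0.51 ± 0.12 in knockout EBs (adjusted p = 0.0317).

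**Figure D2:**
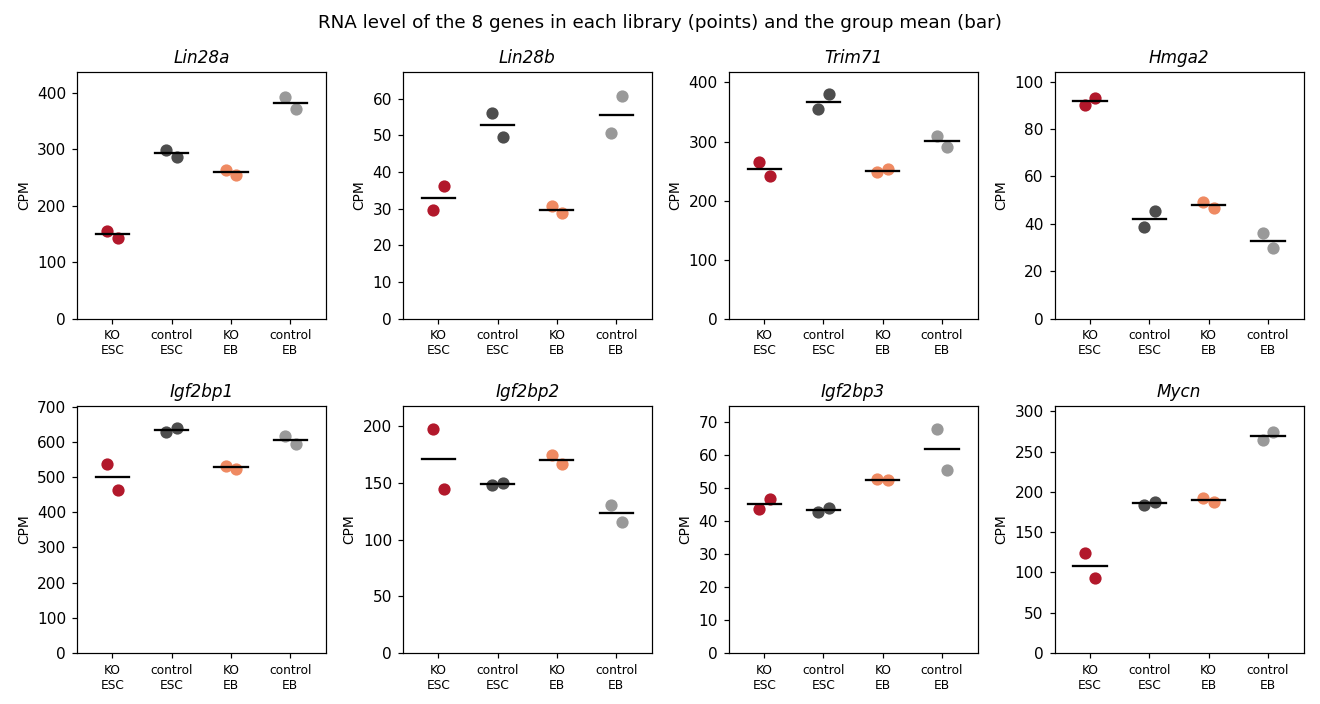
RNA level of the 8 genes in CPM; points are single libraries, bars the mean of the 2 libraries of a group, and each panel has its own axis from 0. Lin28a, Lin28b, Trim71, Igf2bp1 and Mycn are lower in both knockout libraries than in both control libraries at each stage, and Hmga2 is higher.

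In ESCs, 5 of the 8 genes were called lower in the knockout (Lin28a, Lin28b, Trim71, Igf2bp1 and Mycn) and 1 higher (Hmga2). Over all genes tested, 14.5% were called in this comparison, 6.2% lower and 8.3% higher, and the 2 genotypes did not overlap in 52.6%. The median log2 difference was -0.44 over the 8 genes and -0.03 over all genes. Because the choice of genes drew on this comparison, nothing is read from these counts. Removing each library's trend on GC content left Lin28a at -1.02, Lin28b at -0.69, Trim71 at -0.51, Hmga2 at 1.05, Igf2bp1 at -0.38, Igf2bp2 at 0.14, Igf2bp3 at -0.01 and Mycn at -0.74. With only the ESC libraries fitted, Igf2bp1 no longer passed (-0.33, adjusted p = 0.129). Without the first control ESC library, Lin28b (-0.59, adjusted p = 0.117) and Igf2bp1 (-0.36, adjusted p = 0.128) no longer passed; without the second, Lin28b (-0.78, adjusted p = 0.0543), Igf2bp1 (-0.34, adjusted p = 0.177) and Trim71 (-0.49) did not. Igf2bp2 depended on the knockout ESC libraries, at 0.40 without the second (adjusted p = 0.00539) and -0.06 without the first.

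In EBs, 3 of the 8 were called lower in the knockout (Lin28a, Lin28b and Mycn) and 1 higher (Hmga2), where 6.8% of all genes tested were called, 2.04% lower and 4.75% higher, and the genotypes did not overlap in 59.4%. The median log2 difference was -0.25 over the 8 genes and 0.0 over all genes. As in ESCs, nothing is read from these counts. With the GC trend of each library removed, 1413 genes were called higher and 1028 lower, against 814 and 350 without that step. Leaving out the knockout EB library that held liver RNA gave log2 differences of -0.58 for Lin28a, -0.94 for Lin28b, -0.24 for Trim71, 0.51 for Hmga2, -0.20 for Igf2bp1, 0.44 for Igf2bp2, -0.23 for Igf2bp3 and -0.52 for Mycn, close to those with it. The calls of Hmga2 and Mycn were lost without any 1 of the 4 EB libraries or of the 2 control ESC libraries (adjusted p from 0.0663 to 0.217 for Hmga2 and from 0.0965 to 0.201 for Mycn), that of Lin28a without the first control EB library (-0.53) and that of Lin28b without the second (-0.76, adjusted p = 0.0643). Without either knockout ESC library, which this comparison does not use but which enter the estimate of the spread, Trim71 (-0.25 and -0.26), Igf2bp1 (-0.19 and -0.20) and Igf2bp2 (0.47 and 0.46) passed as well, and Trim71 (-0.26) and Igf2bp1 (-0.25, adjusted p = 0.0405) did so with the GC trend removed.

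**Figure D3:**
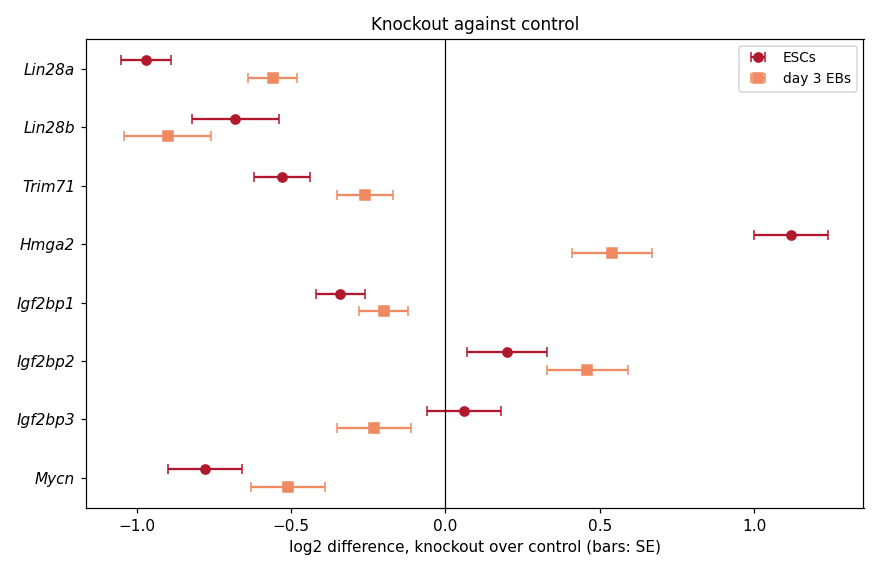
Log2 difference, knockout over control, for the 8 genes in ESCs (circles) and day 3 EBs (squares), with bars of 1 SE. Hmga2 lies to the right of 0 and Lin28a, Lin28b, Trim71, Igf2bp1 and Mycn to the left of 0 at both stages.

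Whether the knockout difference changed with stage was tested as the difference between the EB and the ESC values. None of the 8 genes passed in edgeR's quasi-likelihood test or in DESeq2, where edgeR called 1.38% of all genes tested, 0.742% higher and 0.642% lower. Of the 8, 3 had an unadjusted p below 0.05 in edgeR. The share of all genes below that level was not counted, so nothing is read from the 3. For Lin28a and Trim71, whose knockout differences were in view when the genes were chosen, the values of 0.41 ± 0.12 and 0.27 ± 0.12 are a description, with the smaller knockout difference in EBs. Hmga2 also had the smaller difference in EBs, at -0.58 ± 0.18 (adjusted p = 0.178). Lin28b had the larger value in EBs, with a difference of -0.22 ± 0.20 (adjusted p = 0.726). Some of the values turned on the knockout ESC libraries. With all libraries Igf2bp1 was at 0.15 ± 0.12, Igf2bp2 at 0.27 ± 0.19 and Mycn at 0.27 ± 0.17. Without the first knockout ESC library they stood at 0.28, 0.53 and 0.51, and Lin28a and Trim71 at 0.48 and 0.36. Hmga2 hardly moved in value, at -0.59. Without the second, Lin28a stood at 0.35. Leaving a library out also changes the estimate of the spread, and with it the calls over all genes and among these 8. That none of the 8 passed held with all libraries. It did not hold without either knockout ESC library, or in edgeR with the GC trend removed.

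The same libraries also show the genes during differentiation, as day 3 EBs against ESCs within a genotype. These comparisons share their libraries with the knockout comparisons, in which Lin28a and Trim71 were seen to be lower before the genes were chosen. The p-values of Lin28a and Trim71 between stages, and counts of calls that include them, are therefore not independent of the choice. In knockout cells Lin28a rose on the log2 scale by 0.79 ± 0.08 (adjusted p = 0.000221) and Mycn by 0.81 ± 0.12 (adjusted p = 0.00197), and Hmga2 fell by 0.93 ± 0.12 (adjusted p = 0.000823). In control cells Lin28a rose by 0.38 ± 0.08 (adjusted p = 0.00984), Mycn by 0.54 ± 0.12 (adjusted p = 0.012) and Igf2bp3 by 0.51 ± 0.12 (adjusted p = 0.014). Trim71 fell in control EBs by 0.29 ± 0.09 (adjusted p = 0.041). Neither LIN28 paralog was called lower in EBs in either genotype, with Lin28b at -0.15 ± 0.14 in the knockout (adjusted p = 0.522) and 0.07 ± 0.14 in the control (adjusted p = 0.756). Hmga2 in control cells stood at -0.35 ± 0.13 (adjusted p = 0.0808). Igf2bp1 and Igf2bp2 passed in neither genotype. With either knockout ESC library left out of the estimate of the spread, Hmga2 (-0.36 for both, adjusted p = 0.0301 and 0.0296) and Igf2bp2 (-0.27 and -0.28, adjusted p = 0.0105 and 0.00986) passed in control cells. In knockout cells Igf2bp1 passed without the first knockout ESC library (0.20, adjusted p = 0.00959), and Igf2bp3 with the GC trend removed (0.35, adjusted p = 0.0297).

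Knockout cells had 2 of the 8 genes called higher in EBs and 1 lower, where 15.3% of all genes tested were called, 8.23% higher and 7.11% lower, and the stages did not overlap in 58.1%. Control cells had 3 called higher and 1 lower, where 18.2% were called, 8.6% higher and 9.63% lower, and the stages did not overlap in 64.9%. The median log2 difference over the 8 genes was 0.04 in knockout cells and 0.0 in control cells, and over all genes -0.0 and -0.01. With library totals in place of TMM factors, 1137 genes were called higher and 1567 lower in knockout EBs over knockout ESCs, against 1410 and 1217 with them, and the median of all genes there moved to -0.054. Each of the control calls was fragile with 2 libraries a group. Without 1 control library at a time, the adjusted p of Lin28a ran from 0.0549 to 0.131, that of Mycn from 0.0841 to 0.127 and that of Trim71 from 0.127 to 0.291, and Igf2bp3 was lost without 3 of the 4 (0.114 to 0.134). Trim71 was lost as well in DESeq2 (adjusted p = 0.0548), and without either knockout EB library (0.0804 and 0.0823). In knockout cells the calls of Lin28a, Mycn and Hmga2 held without each library in turn, with Mycn at 1.04 without the first knockout ESC library and 0.61 without the second.

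**Figure D4:**
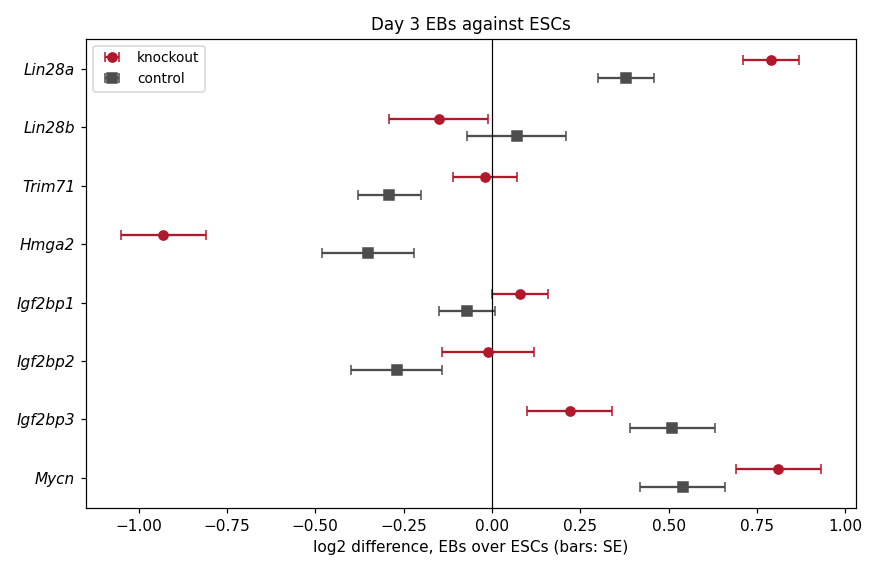
Log2 difference, day 3 EBs over ESCs, for the 8 genes in knockout (circles) and control cells (squares), with bars of 1 SE. Lin28a and Mycn lie to the right of 0 in both genotypes, and Hmga2 lies furthest to the left in knockout cells.

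Ranked by TPM, the order of the 8 genes differed between the groups. In knockout ESCs Igf2bp1 led with 169.8 ± 20.7 TPM (SD, n = 2), and Lin28a (123.2 ± 8.91), Mycn (108.3 ± 23.4), Trim71 (89.4 ± 7.42) and Igf2bp2 (75.9 ± 17.8) followed with each neighbour overlapping the next, then Hmga2 (44.4 ± 0.373), Igf2bp3 (18.1 ± 0.595) and Lin28b (11.9 ± 1.5). In control ESCs Lin28a led with 239.9 ± 6.95 TPM, ahead of Igf2bp1 (214.4 ± 2.74), Mycn (184.5 ± 2.91), Trim71 (128.8 ± 6.18), Igf2bp2 (65.9 ± 0.39), Hmga2 (20.3 ± 2.27), Lin28b (19.1 ± 1.72) and Igf2bp3 (17.4 ± 0.378), of which only Hmga2 and Lin28b overlapped. EBs of both genotypes began with Lin28a, Mycn, Igf2bp1, Trim71 and Igf2bp2. Knockout EBs ended with Hmga2 (21.8 ± 0.632), Igf2bp3 (19.8 ± 0.0222) and Lin28b (10.1 ± 0.385), and control EBs with Igf2bp3 (23.3 ± 3.26), Lin28b (18.9 ± 2.49) and Hmga2 (15.0 ± 1.98). Summed over the 8 genes, the level was 694.7 and 587.5 TPM in knockout ESCs against 886.0 and 894.7 TPM in control ESCs. In EBs it was 755.3 and 744.7 TPM in the knockout against 960.3 and 933.4 TPM in the control. The sums include Lin28a and Trim71, whose lower knockout values were in view when the genes were chosen. Hmga2 moved the other way, so nothing is read from the sums.

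The knockout differences in ESCs are set here beside the number of let-7 sites, as a description. Trim71 with 4 8-base sites stood at -0.53, Igf2bp1 with 3 at -0.34, and Lin28a with 2 at -0.97. Of the genes with 1, Hmga2 stood at 1.12, Lin28b at -0.68, Igf2bp2 at 0.20 and Igf2bp3 at 0.06. Mycn with none stood at -0.78. Counted by the 7-base match, Trim71, Igf2bp1, Hmga2 and Lin28b held 4 each. Over all genes, those with at least 1 8-base site in the 3′ UTR were set beside those with none, leaving out the chosen genes that hold one. Of 590 such tested genes with a site, 9.32% were called higher and 8.14% lower in knockout ESCs (median log2 difference -0.043). Of 13528 genes without a site, 8.79% and 7.19% were (median -0.033). In knockout EBs the shares were 4.24% and 2.88% with a site (median -0.011), against 4.81% and 2.36% without one (median -0.006). For the difference between stages, 10 genes with a site (1.69%) were called higher and 3 (0.508%) lower, against 0.857% and 0.784% without one. Genes with a site had longer 3′ UTRs, with a median of 2585 bases against 1260 bases. A part of let-7 in these values was not tested.

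The transcripts of let-7 itself were barely seen. Of 12 let-7 and miR-98 hairpins in the table, 10 had 0 counts in every library, and the 12 held 5 counts in all. On the same strand 9 genes surround a hairpin, and 5 of these could be tested. Wdr82, a histone methyltransferase subunit gene in which let-7g lies, fell in knockout ESCs by 0.36 ± 0.09 on the log2 scale (adjusted p = 0.0225), at 150.7 ± 12.1 CPM against 193.4 ± 3.32 CPM in control ESCs (SD), and stood at -0.02 ± 0.09 in EBs (adjusted p = 0.916); its ESC call was lost without either control ESC library (adjusted p = 0.165 and 0.144) or the first control EB library (0.0501). The Wdr82 call was also lost with only the ESC libraries fitted (adjusted p = 0.123). Huwe1, a ubiquitin ligase gene that holds let-7f-2 and miR-98, stood at -0.05 ± 0.08 in ESCs and -0.17 ± 0.08 in EBs and did not pass (adjusted p = 0.749 and 0.262). Spaca6, around let-7e, had -0.17 ± 0.21 and -0.13 ± 0.22, and 6720427I07Rik, around let-7a-1, let-7d and let-7f-1, had -0.06 ± 0.35 and -0.11 ± 0.35. The fifth, 3110039I08Rik around let-7a-2, had at most 10 counts in a library. These levels are those of the genes and not of the microRNAs.

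The wider machinery was followed in lists of related genes, each set beside the shares for all genes tested given above. Of 20 genes of microRNA processing, 4 fell and 1 rose in knockout ESCs, and the median log2 difference was -0.15 (all genes -0.03). Those that fell were Tnrc6c, a partner of Argonaute in silencing (-0.83 ± 0.12, adjusted p = 0.0015), Ago1, an Argonaute (-0.56 ± 0.10, adjusted p = 0.00451), Drosha, the nuclease that cuts primary transcripts (-0.38 ± 0.08, adjusted p = 0.0109), and Dicer1, the nuclease that cuts hairpins (-0.37 ± 0.10, adjusted p = 0.0342). Tut7, one of the uridyl transferases that act with LIN28A on let-7 precursors, rose by 0.35 ± 0.10 (adjusted p = 0.0384), though not in DESeq2 (0.0587). With only the ESC libraries fitted, Drosha (adjusted p = 0.094), Dicer1 (0.15) and Tut7 (0.135) did not pass. In knockout EBs no gene of the 20 passed in edgeR or in DESeq2, 6 had an unadjusted p below 0.05, and the median was -0.11 (all genes 0.0). The share of all genes below that unadjusted level was not counted, so nothing is read from the 6. The EB count moved with the libraries, from 0 to 7 called lower without 1 library at a time. Without either knockout ESC library Tnrc6c (-0.27 for both), Ago1 (-0.28 and -0.29) and Drosha (-0.25 and -0.26) fell and Tut7 (0.28 for both) rose in EBs (adjusted p from 0.00597 to 0.0396), and with the GC trend removed Ago1 (-0.34, adjusted p = 0.0251) and Drosha (-0.29, adjusted p = 0.00935) fell. Without 1 control ESC library Ago1 (second, adjusted p = 0.0803), Drosha (0.106 and 0.0999) and Dicer1 (0.198 and 0.192) no longer passed in ESCs, nor did Dicer1 without any 1 EB library (0.0572 to 0.0718) or Tut7 without any 1 EB or control ESC library (0.0727 to 0.239).

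Of 23 other known let-7 targets that could be tested, 2 rose and 2 fell in knockout ESCs, with a median of -0.09; without 1 library at a time, 1 to 3 rose and 1 to 7 fell. The 2 D-type cyclins on the list moved apart. Ccnd2 rose, at 56.7 ± 4.96 CPM in knockout ESCs against 23.4 ± 1.25 CPM in control ESCs (1.27 ± 0.14, adjusted p = 0.000244), and Ccnd1 fell, at 55.1 ± 4.14 against 92.0 ± 2.21 CPM (-0.74 ± 0.10, adjusted p = 0.00068). Irs2, an insulin receptor substrate, rose by 0.76 ± 0.18 (adjusted p = 0.0178) and Arid3b, a DNA-binding protein, fell by 0.53 ± 0.14 (adjusted p = 0.0304); both were lost without either control ESC library (adjusted p from 0.099 to 0.203), and Arid3b also without any 1 EB library (0.0537 to 0.0706). Neither Irs2 (adjusted p = 0.0756) nor Arid3b (0.128) passed with only the ESC libraries fitted. Hmga1, the paralog of Hmga2, was at 107.2 ± 53.9 CPM in knockout ESCs against 183.3 ± 6.45 CPM in control ESCs, and its difference of -0.77 ± 0.24 did not pass (adjusted p = 0.0617). Its value turned on the knockout ESC libraries, at -1.42 without the first (adjusted p = 1.16e-06) and -0.34 without the second (adjusted p = 0.00513), and it passed as lower with the GC trend removed (-0.66, adjusted p = 0.000839), with the replicate block (-0.82, adjusted p = 0.0471) and with no low-count filter (adjusted p = 7.88e-11). In EBs Hmga1 was at 236.9 ± 7.15 CPM in the knockout against 341.9 ± 6.55 CPM in the control (-0.53 ± 0.24, adjusted p = 0.237), and it passed with only the EB libraries fitted (-0.52, adjusted p = 0.000718) and with the GC trend removed (-0.39, adjusted p = 0.0279). In knockout EBs 2 of the list fell and none rose, with a median of -0.08; without 1 library at a time, 0 to 7 fell. Ccnd1 was one of the 2, at 105.3 ± 6.24 CPM in knockout EBs against 153.6 ± 2.74 CPM in control EBs (-0.54 ± 0.10, adjusted p = 0.00746), and it was lost without any 1 EB library (adjusted p from 0.0531 to 0.104).

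TRIM71 is known to repress the mRNAs of the 5 genes listed here. In knockout ESCs, where Trim71 RNA was lower, Mbnl1, a splicing factor, rose by 0.66 ± 0.17 (adjusted p = 0.0237) and Egr1, an immediate early transcription factor, fell by 1.46 ± 0.25 (adjusted p = 0.00351), at 27.4 ± 3.38 CPM against 75.2 ± 2.19 CPM in control ESCs. Cdkn1a, a cell cycle inhibitor, stood at 0.38 ± 0.13 and did not pass (adjusted p = 0.0875), and Rbl1 and Rbl2, of the retinoblastoma family, were at -0.08 ± 0.15 and -0.02 ± 0.17. In knockout EBs none of the 5 passed in edgeR or DESeq2, 1 had an unadjusted p below 0.05, and Cdkn1a stood at 0.42 ± 0.13 (adjusted p = 0.0919). Here too, the share of all genes below the unadjusted level was not counted. Cdkn1a passed as higher with the GC trend removed, in ESCs (0.41, adjusted p = 0.00943) and in EBs (0.43, adjusted p = 0.0121), and with no low-count filter (adjusted p = 0.0312 in ESCs and 0.0228 in EBs). It also passed in ESCs without the second knockout ESC library (0.52, adjusted p = 0.00614), and in EBs without either knockout ESC library (adjusted p = 0.01 and 0.0103) and with only the EB libraries fitted (adjusted p = 0.0182). The list's median was -0.02 in ESCs and 0.15 in EBs. Mbnl1 no longer passed with only the ESC libraries fitted (adjusted p = 0.0852). The call of Egr1 was lost without the second control ESC library (adjusted p = 0.0552), and that of Mbnl1 without either control ESC library (0.166 and 0.189), the second knockout ESC library (0.0653) or either control EB library (0.0543 and 0.0539). Of 3 other TRIM-NHL genes, Trim2 fell in knockout ESCs by 0.64 ± 0.13 (adjusted p = 0.00864). Its call was lost without either control ESC library (-0.64 and -0.65) and with only the ESC libraries fitted (adjusted p = 0.0532). Trim3 and Trim32 stood at -0.04 ± 0.23 and -0.02 ± 0.16 in knockout ESCs. In EBs Trim2, Trim3 and Trim32 were at -0.02 ± 0.13, -0.22 ± 0.23 and 0.14 ± 0.16.

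In the list of the insulin-like growth factor axis and of RNAs bound by IGF2BP proteins, 6 genes could be tested, and in knockout ESCs 2 rose and 1 fell, with a median of 1.25. In EBs 1 rose, with a median of 0.03. H19, an imprinted long non-coding RNA, was at 449.5 ± 149.0 CPM in knockout ESCs against 162.7 ± 8.06 CPM in controls (1.47 ± 0.19, adjusted p = 0.000535). It was also higher in knockout EBs, at 772.6 ± 117.0 CPM against 420.4 ± 4.41 CPM in control EBs (0.88 ± 0.18, adjusted p = 0.018). Cd44, a hyaluronan receptor whose mRNA IGF2BP proteins bind in human cells, rose in knockout ESCs by 2.27 ± 0.29 (adjusted p = 0.000542), at 16.0 ± 6.26 CPM against 3.31 ± 0.187 CPM in control ESCs, and stood at 0.12 ± 0.28 in EBs (adjusted p = 0.857). Igf2r, the receptor that clears IGF2, fell in knockout ESCs by 0.40 ± 0.09 (adjusted p = 0.0189). Its call was lost without either control ESC library (-0.44 and -0.36) and with only the ESC libraries fitted (adjusted p = 0.0797). H19 in EBs was lost without either control ESC or control EB library or the second knockout EB library (adjusted p from 0.0654 to 0.208).

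Of 11 genes of the MYC family and MAX network, 1 rose and 1 fell at each stage. Mycl, another MYC family member, fell by 1.26 ± 0.16 in knockout ESCs (adjusted p = 0.00053) and by 0.86 ± 0.15 in knockout EBs (adjusted p = 0.00684), at 26.0 ± 0.618 CPM in knockout EBs against 47.3 ± 3.01 CPM in control EBs. Mxd4, a MAX partner that opposes MYC, rose by 0.55 ± 0.16 (adjusted p = 0.0424) and 0.61 ± 0.16 (adjusted p = 0.042), in neither case in DESeq2 (0.0752 and 0.0669). Nor did Mxd4 pass in ESCs with only the ESC libraries fitted (adjusted p = 0.117). Myc itself stood at -0.20 ± 0.13 in ESCs and 0.06 ± 0.13 in EBs and did not pass (adjusted p = 0.35 and 0.838). Mycl in EBs was lost without either control EB library or the first knockout EB library (0.0712 to 0.0839), and Mxd4 in ESCs without any library but the first knockout ESC library (0.0552 to 0.223) and in EBs without any 1 EB or control ESC library (0.0917 to 0.276).

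**Figure D5:**
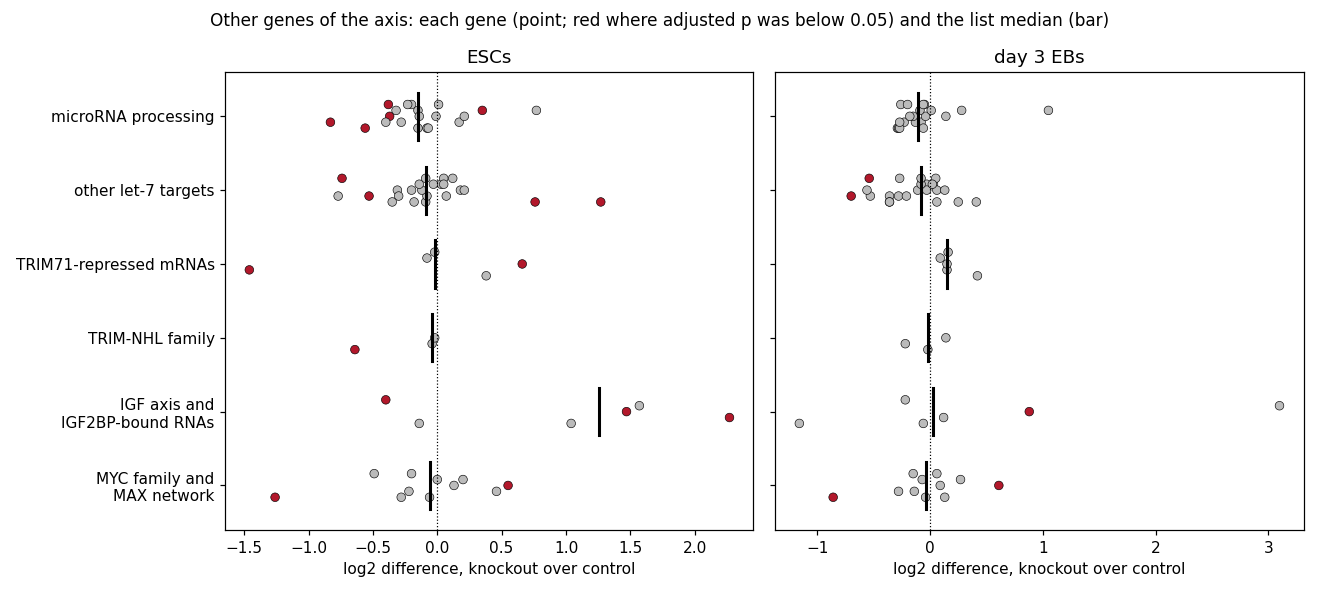
Log2 difference, knockout over control, of every tested gene of 6 related lists in ESCs (left) and day 3 EBs (right); each point is 1 gene, red where the adjusted p was below 0.05, and black bars are list medians. The median lies furthest from 0 in the insulin-like growth factor list in ESCs, at 1.25, and fewer points are red in EBs than in ESCs.

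The genes whose level ran most like each of the 8 over the 8 libraries were taken from 10639 named genes averaging 5 CPM or more, by Pearson r of log2 CPM. The libraries fall into 4 groups of 2, so these values describe a shared group pattern. Ina and Eno1 were among the 3 closest to Lin28a (r = 0.996 for each), and Flad1 and Adrb3 among the 3 closest to Igf2bp2 (0.969 and 0.966). Lin28b ran closest to Ppid, Rbm44 and Sestd1 (0.973 to 0.978). Trim71 ran closest to Dlgap3, Wasf3 and Svil (0.987 to 0.991), Hmga2 to Slc25a4, Arfgef1 and Tmem256 (0.988 to 0.991), and Mycn to Crmp1, Col18a1 and Pml (0.994 to 0.996). Igf2bp1 ran closest to Ago1, Mex3a and Ywhag (0.983 to 0.991), and Igf2bp3 to Isy1, Cdca4 and Mea1 (0.96 to 0.968). Col18a1, a basement membrane collagen, averaged 144.1 CPM in knockout ESCs against 373.8 CPM in controls, and 341.0 CPM in knockout EBs against 601.1 CPM in controls of that stage.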

How the data were processed

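Poly(A) RNA was sequenced in 8 libraries, 2 for each of 4 groups, and each library was placed in its group by its label. The deposited table holds the authors' whole-number counts per gene, not normalized, per the file headers. Per the submitters' processing notes, HISAT2, featureCounts, DESeq2 and the build mm10 were used. Versions, strand setting and the handling of multi-mapping reads were not given in the sources used here. Of 55401 Ensembl IDs, 55141 were matched to a symbol, and 23376 genes had 0 counts in every library.

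Genes were kept by edgeR's filterByExpr (17125), scaled with TMM factors and tested with edgeR's quasi-likelihood test on all 8 libraries with 1 mean per group (common biological coefficient of variation 0.132). Benjamini-Hochberg adjustment ran over every gene tested, and genes were called below an adjusted p of 0.05; SE is the size of the log2 difference divided by the root of F. TPM used the exonic lengths deposited with the counts, and GC content and 3′ UTRs came from GENCODE M21. Seed matches were searched in the longest annotated 3′ UTR of each gene, and mature microRNA sequences came from RefSeq. The procedure was also run on simulated counts, which did not model the GC trend or the liver RNA of single libraries. Its outcome there is not reported here. Tools were edgeR 4.0.16, DESeq2 1.42.0 and limma 3.58.1 in R 4.3.3.

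The genes and lists were chosen with earlier results of these data known. Named were the 8 genes whatever their result, the 3 named genes most like each, up to 4 called genes of each list per knockout comparison, and all let-7 host and TRIM-NHL genes; some genes that this rule names are not reported here. Hmga1 was named after its values were seen. Alternatives were median-of-ratios factors, library totals, all genes unfiltered, a filter at a mean of 1 CPM, a replicate block, only the libraries compared, DESeq2, a GC trend removed from each library (a spline with 5 degrees of freedom), and each library left out in turn. A block with the knockout EB numbers crossed was added after the data were seen. Where a group is left with 1 library, it is assumed to vary like the others.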

Additional observations from a re-analysis of the deposited data

Results flagged for a closer look

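Cd44, a hyaluronan receptor on the list of RNAs bound by IGF2BP proteins, was singled out because its knockout difference itself differed between the stages in edgeR's quasi-likelihood test. Cd44 averaged 16.0 ± 6.26 CPM in knockout ESCs against 3.31 ± 0.187 CPM in controls, and 7.72 ± 0.378 CPM in knockout EBs against 7.13 ± 0.895 CPM in control EBs (SD, n = 2). The difference in EBs minus that in ESCs was -2.15 ± 0.40 on the log2 scale (adjusted p = 0.03, or 0.000427 in DESeq2). It lay between -2.01 and -2.28 without any 1 library of the EBs or of the control ESCs and then no longer passed (adjusted p from 0.0742 to 0.243). It passed without the first knockout ESC library (-2.49, adjusted p = 0.000883) and without the second (-1.68, adjusted p = 0.0151). None of the 8 axis genes met this or another criterion for a closer look. Markers of extraembryonic endoderm were higher in the same knockout ESC libraries, and their part in this difference was not tested.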

How the results depend on the processing

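With 2 libraries a group, the number of the 8 genes called moved with the library left out: knockout against control in ESCs 3 to 7 (6 with all libraries), knockout against control in EBs 1 to 7 (4), EBs against ESCs in control 0 to 6 (4) and in knockout 3 to 5 (3), and the difference between stages 0 to 6 (0). Of the other settings, 7 were called in EBs with only the libraries compared, and 1 in the difference between stages with the GC trend removed; scaling, filters, block and DESeq2 kept each count within 1.5 times. The cause was not tested. Of the counts over lists, 706 stayed within 1.5 times and 254 did not.

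Directions reversed only in values that had not passed. For knockout against control in ESCs, Igf2bp3 went to -0.01 with the GC trend removed, and Igf2bp2 ran from -0.06 to 0.40 over libraries left out. For EBs against ESCs, Lin28b ran from -0.07 to 0.20 in control cells. In knockout cells Lin28b ran from -0.27 to 0.00, Trim71 from -0.08 to 0.07, Igf2bp1 from -0.03 to 0.20 and Igf2bp2 from -0.21 to 0.25, with Igf2bp2 at 0.01 with the replicate block and 0.05 with the GC trend removed. Among list genes in ESCs, Trim3 ran from -0.56 to 0.33 (0.02 with the GC trend removed) and Trim32 from -0.13 to 0.09 (0.00 with library totals and 0.01 with the filter at a mean of 1 CPM). In EBs, Egr1 ran from -0.41 to 0.55, Trim2 from -0.09 to 0.05 (0.01 with library totals), Cd44 from -0.01 to 0.25, Trim32 from -0.03 to 0.32 and Wdr82 from -0.04 to 0.00 (0.00 with library totals).

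Over all genes, counts called higher and lower without 1 library ran over wide ranges: 485 to 1948 and 271 to 2781 for the knockout in ESCs, 196 to 1721 and 40 to 1466 in EBs, 351 to 2779 and 479 to 2733 for control differentiation, 503 to 3228 and 340 to 2257 for knockout differentiation, and 0 to 1463 and 0 to 577 for the difference (1421 and 1062, 814 and 350, 1472 and 1649, 1410 and 1217, 127 and 110 with all). With only the libraries compared they were 951 and 407, 1449 and 1271, 2932 and 2639, and 389 and 429 for the first 4 of these. With the GC trend removed 1876 and 2077 genes were called for the knockout in ESCs, 1413 and 1028 in EBs, 2226 and 2129 for control differentiation, 2189 and 1511 for knockout differentiation, and 410 and 268 for the difference. Without the low-count filter 1442 and 652 were called for the knockout in EBs, 2171 and 1471 for knockout differentiation, and 448 and 256 for the difference, where DESeq2 called 214 and 178.

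The labels do not say whether libraries with the same replicate number pair. Deviations from the group means of same-numbered libraries correlated at -0.057 to 0.037 across genes, except control and knockout EBs at -0.238. With the number as a block, 6, 4, 3, 3 and 0 of the 8 genes were called in the 5 comparisons, the 1 loss being Trim71 in control differentiation (adjusted p = 0.0557). With the knockout EB numbers crossed, a pairing chosen after seeing the data, 4 of the 8 were called in EBs, and 734 genes higher and 301 lower over all.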

Other observations

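Some genes of the related lists were called between EBs and ESCs in both genotypes; they are named here after their values were seen. Ccnd1, a D-type cyclin, was at 105.3 ± 6.24 CPM in knockout EBs against 55.1 ± 4.14 CPM in knockout ESCs, and at 153.6 ± 2.74 CPM in control EBs against 92.0 ± 2.21 CPM in control ESCs (SD, n = 2). It rose on the log2 scale by 0.93 ± 0.10 in knockout cells (SE, adjusted p = 0.000206) and by 0.74 ± 0.10 in control cells (adjusted p = 0.000565), and passed under each alternative tried. Ccnd2, its paralog, fell by 1.43 ± 0.14 in knockout cells (adjusted p = 0.000154) and by 0.57 ± 0.15 in control cells (adjusted p = 0.0233). Drosha, the nuclease that cuts primary microRNA transcripts, rose by 0.58 ± 0.08 in knockout cells (adjusted p = 0.00128) and by 0.45 ± 0.08 in control cells (adjusted p = 0.00383). Mycl, of the MYC family, rose by 1.22 ± 0.16 in knockout cells (adjusted p = 0.00079) and by 0.83 ± 0.15 in control cells (adjusted p = 0.00386). The knockout calls of Ccnd2, Drosha and Mycl held without each library in turn, while each of their control calls was lost without the second control ESC library.

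Tut7 and Cdk6 were also called lower in EBs of both genotypes, and Hmga1, H19, Mnt and Egr1 higher. Cd44 was called lower in knockout EBs (-1.05 ± 0.27, adjusted p = 0.026) and higher in control EBs (1.10 ± 0.29, adjusted p = 0.0266). Each of these lost its call in at least 1 genotype when 1 library was left out.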
